A study of Mus musculus with 6 samples.

Results

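The transcripts described here are 10 genes of the NF-kB pathway in muscle stem cells (MuSCs), chosen by symbol from the 22706 genes of the table. They are the 5 subunits Nfkb1, Nfkb2, Rela, Relb and Rel, the IkB family genes Nfkbia, Nfkbie and Nfkbiz, the ubiquitin-editing enzyme Tnfaip3 and the kinase Ikbkb. All 10 were found and all 10 passed the minimum mean level of 5 that 15915 genes passed. RNA-seq of freshly sorted MuSCs was compared between 3 groups of 2 libraries each. Control libraries came from wild type mice, mdx libraries from mice without functional dystrophin, and Sirt6mKO/mdx libraries from mdx mice whose Sirt6 gene lacked exons 4 to 6 after recombination by a constitutively active Cre under the Pax7 promoter, which deletes throughout the skeletal muscle lineage and not in MuSCs alone. The strain label was C57BL/6 for every library, while the mdx line had been obtained on C57BL/10ScSn. Mice were described as male and, in descriptions that differ from each other, as mainly between 8 and 20 weeks old, and the labels give no age for any group. Cells were released from limb and trunk muscle by enzymes and sorted as negative for Sca1, CD45 and CD31 and positive for Integrin-a7 and CD34, or by a reporter, before total RNA was depleted of ribosomal RNA. Pooling of animals was not stated, and the p-values below measure the spread between these libraries.

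NF-kB is a family of dimeric transcription factors held in the cytoplasm by IkB proteins. Signals from tumour necrosis factor, interleukin-1 and Toll-like receptors activate the IkB kinase complex, IkB is degraded, and the dimers enter the nucleus. Several of the genes they switch on encode the brakes of the same pathway, among them Nfkbia and Tnfaip3, so that the RNA of these inhibitors is widely read as a mark of recent pathway activity. In muscle the pathway is known for inflammation, atrophy and the control of myogenic differentiation, and its early genes also respond to the handling of cells.

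Values are normalised read counts, that is, reads per gene divided by the authors' size factor of the library and rounded. Size factors lay between 0.537 and 1.527, the depth was about 4397632 to 9745218 reads, and 45 to 2039 reads stood behind each value of the 10 genes. MuSC markers were present in all groups, with a summed level over 14 genes of 34984 to 35172 (control), 29494 to 37810 (mdx) and 26277 to 31455 (Sirt6mKO/mdx). Pax7, the defining transcription factor, lay between 2167 and 3236 in the 6 libraries. Sirt6 itself was between 30 and 41 in every library, and since the value is per gene and not per exon it does not test the deletion, so the third group is named by its label. Xist, made from the inactive X chromosome, was 16772 and 12950 for control mice, against 7 and 8 for mdx and 33 and 34 for Sirt6mKO/mdx, while the Y-linked Ddx3y was 3 and 8, then 1024 and 1055, then 1555 and 1767. This pattern goes against the description of the control mice as male, and in the comparisons with control, sex and genotype cannot be told apart. The 10 genes are autosomal.

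Promoter sequences were taken from RefSeq on GRCm38.p6 because the brakes of the pathway are also its targets, and the windows below show where the kappa B consensus, the letters bound by NF-kB dimers, stands before the start of 5 of the 10 genes. The table held windows for 6 of them. Nfkb1, Relb, Nfkbiz and Ikbkb had no entry. Each line gives the 250 bases upstream of a RefSeq transcript start, in the direction of transcription. For Tnfaip3 that start, 19015410, lies inside the gene as the deposited table places it, and nearly all of the window with both of its matches lies inside as well. Capitals mark every match to the kappa B consensus on either strand.
Nfkbia, chr12:55492648-55492897, minus strand: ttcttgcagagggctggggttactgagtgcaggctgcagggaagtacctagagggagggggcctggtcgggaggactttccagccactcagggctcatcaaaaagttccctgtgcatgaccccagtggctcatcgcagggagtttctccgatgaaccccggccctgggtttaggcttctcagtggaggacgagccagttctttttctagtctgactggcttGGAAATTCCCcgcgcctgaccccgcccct
Tnfaip3, chr10:19015411-19015660, minus strand: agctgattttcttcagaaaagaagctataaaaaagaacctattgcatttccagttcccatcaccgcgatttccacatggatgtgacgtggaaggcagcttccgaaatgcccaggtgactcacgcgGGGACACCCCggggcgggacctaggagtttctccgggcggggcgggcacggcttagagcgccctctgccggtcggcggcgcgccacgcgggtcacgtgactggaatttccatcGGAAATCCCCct
Nfkbie, chr17:45555450-45555699, plus strand: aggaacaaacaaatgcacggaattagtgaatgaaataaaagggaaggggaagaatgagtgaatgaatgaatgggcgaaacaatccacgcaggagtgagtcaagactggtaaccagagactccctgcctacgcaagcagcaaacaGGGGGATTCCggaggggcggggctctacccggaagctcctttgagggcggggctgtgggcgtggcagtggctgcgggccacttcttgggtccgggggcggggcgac
Rel, chr11:23770970-23771219, minus strand: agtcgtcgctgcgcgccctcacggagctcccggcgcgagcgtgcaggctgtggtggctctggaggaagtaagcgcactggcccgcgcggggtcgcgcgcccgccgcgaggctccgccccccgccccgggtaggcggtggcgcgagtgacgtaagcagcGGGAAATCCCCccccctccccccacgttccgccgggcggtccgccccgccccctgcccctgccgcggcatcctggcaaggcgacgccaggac
Nfkb2, chr19:46304487-46304736, plus strand: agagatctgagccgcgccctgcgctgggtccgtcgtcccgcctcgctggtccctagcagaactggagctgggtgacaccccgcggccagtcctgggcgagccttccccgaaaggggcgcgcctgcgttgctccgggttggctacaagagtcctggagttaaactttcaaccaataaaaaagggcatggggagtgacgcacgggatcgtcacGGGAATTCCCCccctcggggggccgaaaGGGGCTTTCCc

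Matches stood 29 to 20 bases before the start of Nfkbia, 125 to 116 and 12 to 3 bases before that of Tnfaip3, and 106 to 97 bases before that of Nfkbie. In Rel 2 matches overlapped between 92 and 82 bases before the start. The first start of Nfkb2 had 2 overlapping matches between 39 and 29 bases and 1 more between 11 and 2 bases, and its other 2 annotated starts each had 1 match over 200 bases upstream. Rela had none in its window, and neither had the second start of Tnfaip3. Thus 7 of 9 windows, or 5 of 6 genes, held a match, where 3.90% of all 32851 promoter windows and 5.56% of the 13140 genes of the deposited table with a window did. The AP-1 motif TGANTCA, bound by Fos and Jun dimers, was found before Nfkbie, Tnfaip3 and the second start of Nfkb2, and in 6.75% of all windows, with no overlap with a kappa B match in the 3 genes. A match is a description of letters and no binding was measured here.

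**Figure D1:**
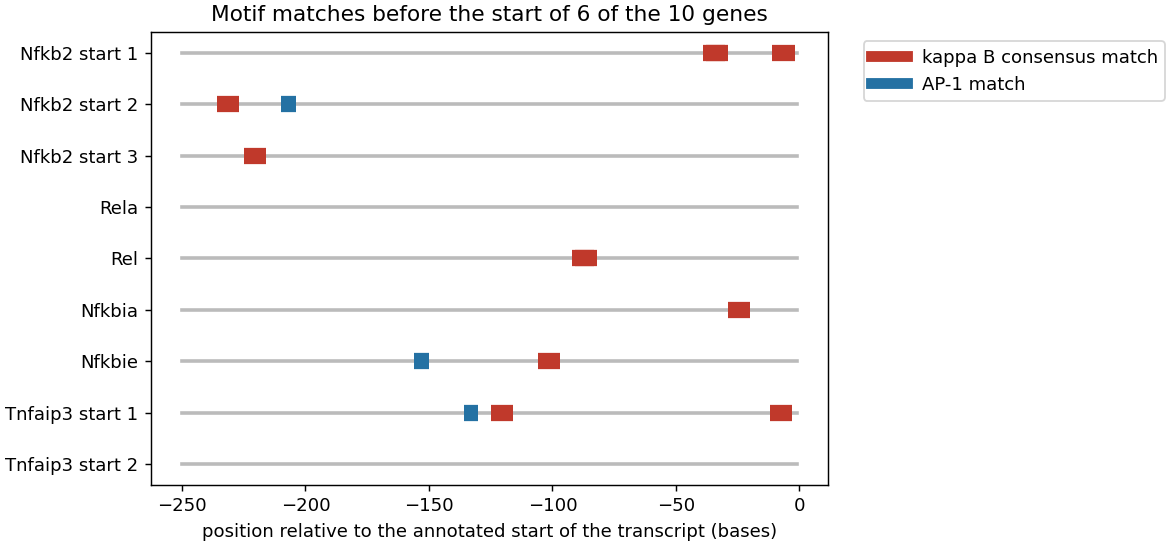
Matches to the kappa B consensus (red) and the AP-1 motif (blue) in the 250 bases before each annotated start of 6 of the 10 genes, with the position in bases on the x axis. Of the 9 windows, 7 hold a kappa B match, and Nfkbia, Tnfaip3 and Nfkb2 have one within 40 bases of a start.

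The first question was how the pathway's own transcripts stood in mdx MuSCs. Of the 10 genes, 9 were lower in mdx than in control and were called (limma, Benjamini-Hochberg adjusted p of at most 0.05 and a log2 fold change of at least 1 in size), against 7.34% of all genes called lower. The 9 genes were also those whose mdx libraries both lay below both control libraries, which held for 28.3% of all genes. The median log2 fold change of the 10 genes was -1.89, and that of all genes 0.00. Only Ikbkb was not called. With no minimum mean 7 of the 10 were called (all genes 989). With 1 prior variance for all genes only Nfkbia, Nfkbiz and Tnfaip3 were called (all genes 541), where 8 of the 10 had an unadjusted limma p under 0.05. Nfkbia, Tnfaip3 and Nfkbiz had the largest falls of the 10, of 11.0-fold, 7.81-fold and 7.11-fold on the scale of normalised count + 1. In bulk RNA a lower value can mean less RNA per cell or fewer cells that make it, and these cannot be told apart.

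In the second comparison 6 of the 10 genes were called higher in Sirt6mKO/mdx than in mdx, against 5.62% of all genes called higher. Both Sirt6mKO/mdx libraries lay above both mdx libraries for 9 of the 10, against 28.8% of all genes. The median was 1.32, with 0.02 over all genes. With no minimum mean only Nfkbia and Nfkbiz were called, and with 1 prior variance for all genes 0 of the 10 were, where 7 had an unadjusted limma p under 0.05. Against control, 1 gene, Tnfaip3, was called lower in Sirt6mKO/mdx, with 2.68% of all genes called lower as background. The Sirt6mKO/mdx libraries stood apart in their sums of normalised counts, 9626453 and 8883310 against 5564142 to 6642949 in the other 4 libraries, and the 10 most abundant genes took 32.6% and 30.0% of them, against 11.7% to 22.9%. With the totals of the libraries made equal, 7 of the 10 were called lower than control (Nfkb1, Nfkb2, Rela, Rel, Nfkbia, Tnfaip3 and Ikbkb), as were 2692 of all genes in place of 427, and 4 of the 10 were called higher than mdx (Nfkb2, Relb, Nfkbia and Nfkbiz). For 5 of the 10 both Sirt6mKO/mdx libraries lay below both control libraries, against 25.3% of all genes, and the median was -0.62 with 0.01 over all genes. The same 2 mdx libraries serve the first and the second comparison and the same 2 control libraries the first and the third, so the comparisons are not independent of each other.

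**Figure D2:**
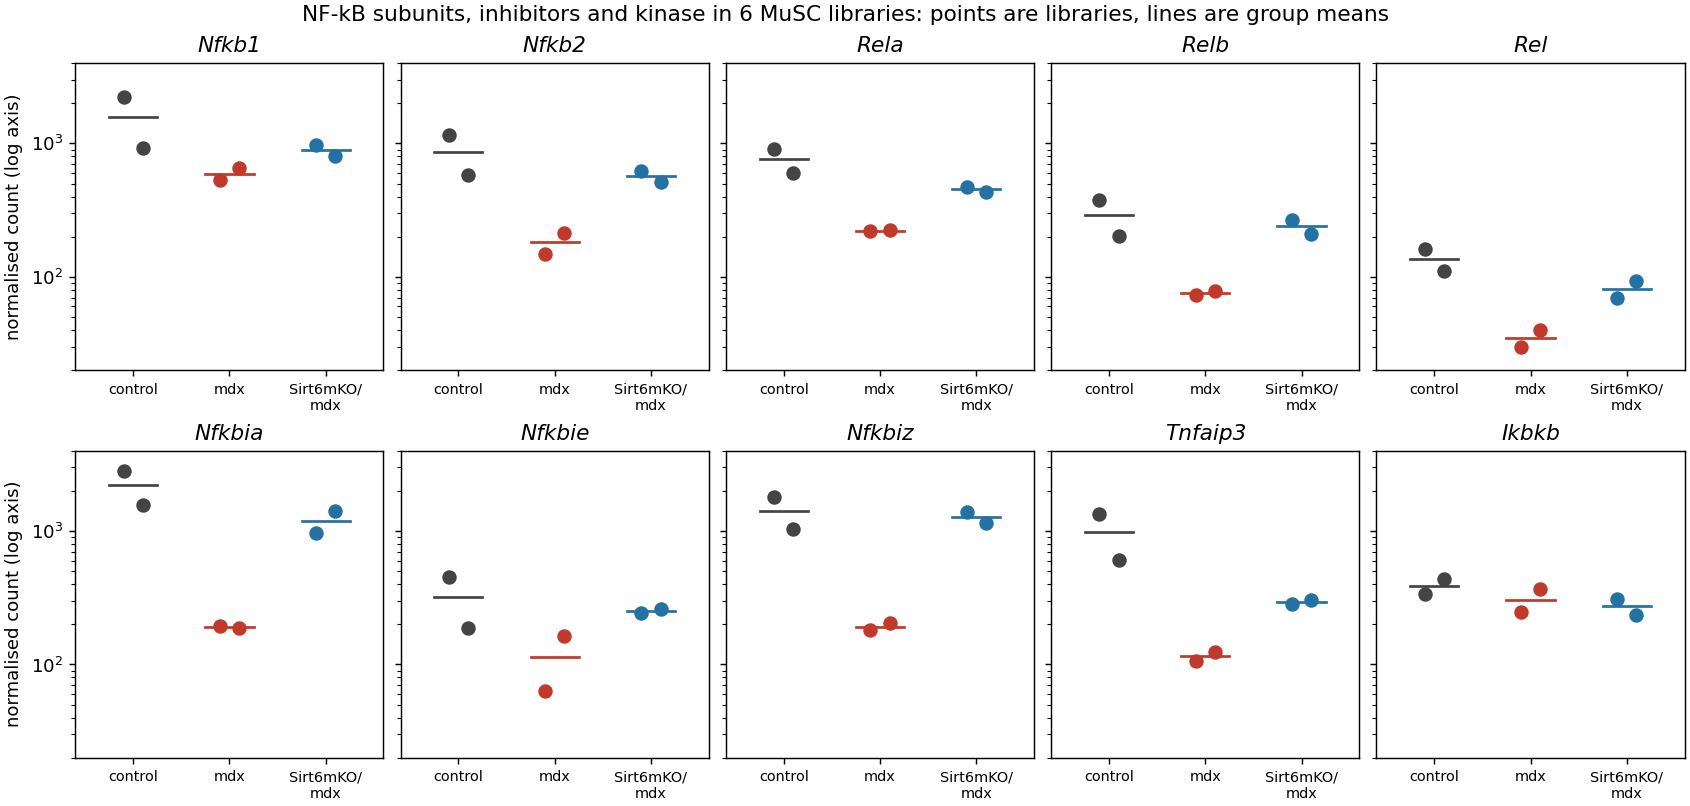
Normalised read count (log axis) of each of the 10 genes in the 6 libraries, with group means as lines. In 9 panels both mdx points lie below all other points, and in the panel of Ikbkb the mdx points overlap both other groups.

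Among the subunits, Rela encodes p65, the main transactivating partner of the canonical dimer (ENSMUSG00000024927; GRCm38 chromosome 19, 5637483 to 5648130). Its normalised count was 915 and 603 (control), 221 and 223 (mdx) and 475 and 430 (Sirt6mKO/mdx). The mdx libraries were the lowest and close together, the control libraries were the highest, and no groups overlapped. Rela fell by 1.74 on the log2 scale in mdx (SE 0.26, adjusted p = 0.0004) and rose by 1.02 in Sirt6mKO/mdx against mdx (SE 0.26, adjusted p = 0.025). Against control, the Sirt6mKO/mdx difference of -0.72 was not called (adjusted p = 0.11). The rise lay close to the minimum log2 fold change of 1, and Rela lost its call with a pseudocount of 10, with the upper quartile or the totals of the libraries made equal, with no minimum mean, with 1 prior variance for all genes, and when either mdx or either Sirt6mKO/mdx library was left out.

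Nfkb1 encodes p105, the precursor of the p50 subunit (ENSMUSG00000028163; chromosome 3, 135584655 to 135691547). It was measured at 2231 and 919 for control mice, against 536 and 651 for mdx and 970 and 804 for Sirt6mKO/mdx. The control libraries differed by 2.43-fold, and the Sirt6mKO/mdx values lay around the lower of them. The log2 fold change in mdx was -1.28 (SE 0.34, adjusted p = 0.018), and without control replicate 1 it was -0.64. The call was lost in 5 of the 6 fits that left out 1 library, all but that without control replicate 2. Sirt6mKO/mdx against mdx gave 0.58, which was not called (adjusted p = 0.30, 95% interval -0.14 to 1.30).

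Nfkb2 encodes p100, the precursor of p52 and the hub of the non-canonical branch (ENSMUSG00000025225; chromosome 19, 46304737 to 46312090). The counts were 1162 and 576 (control), 149 and 214 (mdx) and 618 and 516 (Sirt6mKO/mdx). Both mdx libraries were below all others, while Sirt6mKO/mdx overlapped control. The log2 fold change of -2.19 in mdx (SE 0.32, adjusted p = 0.00029) and that of 1.66 in Sirt6mKO/mdx against mdx (SE 0.32, adjusted p = 0.0049) were both called, the latter not without mdx replicate 1 or either Sirt6mKO/mdx replicate. Exons of genes on the opposite strand cover 18.1% of its exonic bases, and the use of strand in counting was not stated, so its level is uncertain to that extent.

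Relb encodes the usual partner of p52 (ENSMUSG00000002983; chromosome 7, 19606217 to 19629438). It stood at 375 and 204 for control mice, against 73 and 79 for mdx and 269 and 209 for Sirt6mKO/mdx. The Sirt6mKO/mdx libraries lay between the control libraries, and the mdx libraries lay apart from both groups. It fell by 1.85 in mdx (SE 0.33, adjusted p = 0.0014) and rose by 1.63 in Sirt6mKO/mdx against mdx (SE 0.33, adjusted p = 0.0066), a call that was lost when either mdx or either Sirt6mKO/mdx library was left out. Rel, which encodes c-Rel, a subunit best known from lymphocytes, was the least abundant of the 10 (ENSMUSG00000020275; chromosome 11, 23741514 to 23770970). Its counts were 162 and 111 (control), 30 and 40 (mdx) and 70 and 93 (Sirt6mKO/mdx), with no overlap between any groups. The log2 fold change of -1.92 in mdx was called (SE 0.40, adjusted p = 0.0042) and lost its call without control replicate 1 and without mdx replicate 1, and the difference of 1.20 between Sirt6mKO/mdx and mdx was not (adjusted p = 0.073).

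The IkB family genes gave the widest range. Nfkbia encodes IkB-alpha, the prototype inhibitor, which is resynthesised after each pulse of NF-kB activity and ends it (ENSMUSG00000021025; chromosome 12, 55489411 to 55492647). Its normalised count was 2831 and 1572 for control mice, against 193 and 188 for mdx and 969 and 1422 for Sirt6mKO/mdx. The mdx libraries were nearly equal and far below the rest, and the Sirt6mKO/mdx libraries both lay below the control libraries. The log2 fold change of -3.46 in mdx (SE 0.30, adjusted p = 2.4e-06) ranked 108 from the lowest of 15915 genes, and the rise in Sirt6mKO/mdx against mdx was 2.62 (SE 0.30, adjusted p = 6.5e-05). Against control the Sirt6mKO/mdx level was -0.85 on the log2 scale and not called (adjusted p = 0.091).

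Nfkbiz encodes IkB-zeta, an inducible nuclear IkB protein that co-activates some NF-kB targets and restrains others (ENSMUSG00000035356; chromosome 16, 55811375 to 55838899). It was at 1790 and 1041 (control), 180 and 203 (mdx) and 1393 and 1156 (Sirt6mKO/mdx). The Sirt6mKO/mdx libraries lay within the range of the control libraries. Nfkbiz fell by 2.83 in mdx (SE 0.28, adjusted p = 8.4e-06), and the rise of 2.72 in Sirt6mKO/mdx against mdx (SE 0.28, adjusted p = 2.7e-05) was the largest of the 10. Sirt6mKO/mdx differed from control by -0.11, with a 95% interval of -0.70 to 0.49.

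Nfkbie encodes IkB-epsilon, a slower inhibitor of Rela and Rel dimers (ENSMUSG00000023947; chromosome 17, 45555716 to 45563169). The counts were 456 and 189 for control mice, against 63 and 163 for mdx and 241 and 259 for Sirt6mKO/mdx. Its fold changes had the largest standard error of the 10, and the higher mdx library came near the lower control library. The log2 fold change of -1.52 in mdx was called (SE 0.43, adjusted p = 0.025), but leaving out mdx replicate 1 gave -0.85 and leaving out mdx replicate 2 gave -2.20. The call was lost in 4 of the 6 such fits, those without control replicate 1, mdx replicate 1 or either Sirt6mKO/mdx replicate. Sirt6mKO/mdx against mdx gave 1.29 (SE 0.43, adjusted p = 0.075, not called), with 0.61 without mdx replicate 1 and 1.97 without mdx replicate 2. In this comparison Nfkbie was called in the fit of only the 2 groups compared and in that with a replicate block.

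Tnfaip3 encodes A20, which edits ubiquitin chains on RIPK1 and other adaptors and so shuts off signalling to the IkB kinases (ENSMUSG00000019850; chromosome 10, 19000910 to 19015657). It was at 1343 and 607 (control), 107 and 123 (mdx) and 283 and 303 (Sirt6mKO/mdx). The 3 groups were apart, with Sirt6mKO/mdx closer to mdx than to control. Tnfaip3 fell by 2.97 in mdx (SE 0.32, adjusted p = 2.2e-05) and rose by 1.34 in Sirt6mKO/mdx against mdx (SE 0.32, adjusted p = 0.019). The call of the rise was lost in the 4 fits without 1 mdx or 1 Sirt6mKO/mdx library, with no minimum mean, with 1 prior variance for all genes and with the totals of the libraries made equal, where it was 0.72. Tnfaip3 was also lower in Sirt6mKO/mdx than in control, by -1.62 (SE 0.32, adjusted p = 0.0063), at 30.1% of the control mean. Without control replicate 1 this last value was -1.05 and without control replicate 2 it was -2.19, and the call was lost without control replicate 1, without either Sirt6mKO/mdx replicate, with no minimum mean and with 1 prior variance for all genes.

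Ikbkb encodes the catalytic kinase of the canonical branch (ENSMUSG00000031537; chromosome 8, 22659212 to 22706589). Its counts were 335 and 436 (control), 246 and 366 (mdx) and 308 and 236 (Sirt6mKO/mdx). The mdx libraries overlapped both other groups, while both Sirt6mKO/mdx libraries lay below both control libraries. The log2 fold change was -0.35 in mdx against control (95% interval -0.95 to 0.25, adjusted p = 0.44) and -0.15 in Sirt6mKO/mdx against mdx (interval -0.76 to 0.45, adjusted p = 0.78). Against control, Sirt6mKO/mdx gave -0.50, not called (adjusted p = 0.30). The first interval does not reach the falls of Nfkbia, Nfkbiz or Tnfaip3.

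**Figure D3:**
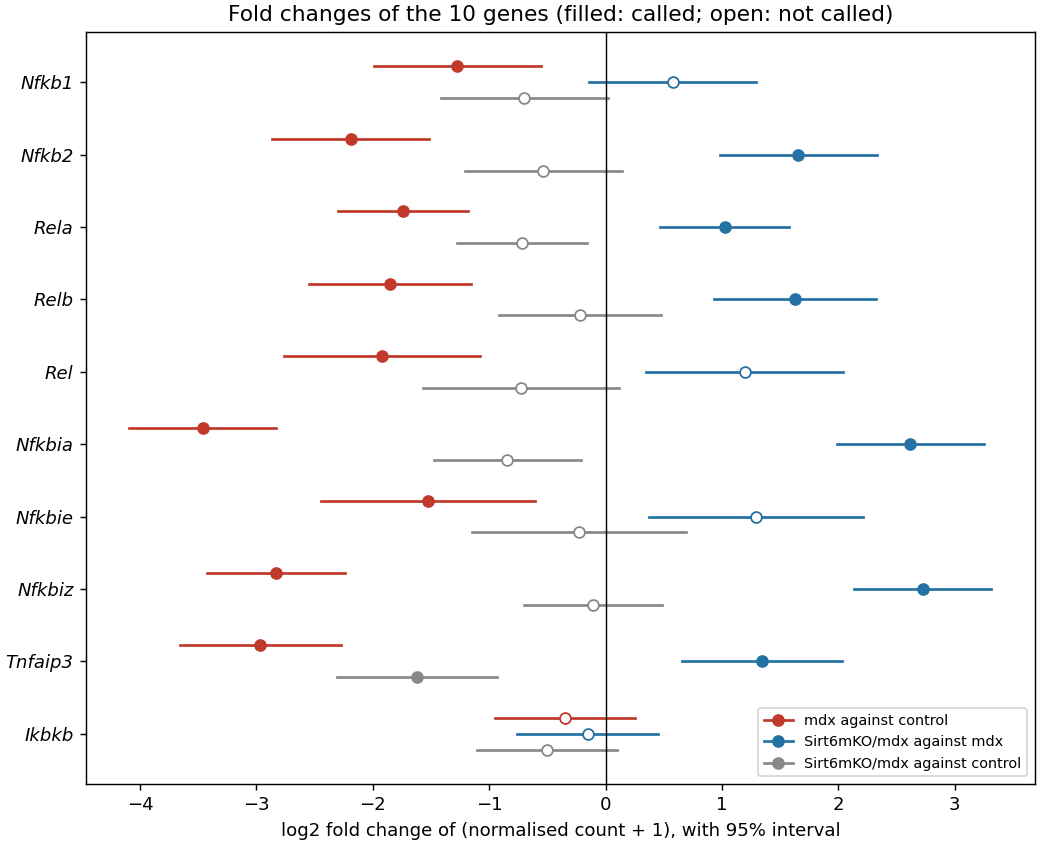
Log2 fold change of normalised count + 1 with its 95% interval for the 10 genes, in mdx against control (red), Sirt6mKO/mdx against mdx (blue) and Sirt6mKO/mdx against control (grey). Red points of 9 genes are filled and negative, 6 blue points are filled and positive, and the only filled grey point is that of Tnfaip3 at -1.62.

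Levels per kilobase of the principal transcript were used to set the genes against each other, although the counts cover all annotated exons of a gene. Exonic and transcript bases were 19078 and 3580 for Ikbkb, 12061 and 4117 for Nfkb1 and 1610 and 1578 for Nfkbia. The order below therefore depends on the length used, above all for Ikbkb and Nfkb1. In control Nfkbia was the highest at 1395 ± 564 (SD, n = 2), and its libraries lay above those of the next gene, Nfkb1, at 383 ± 225. Rel was the lowest at 18.3 ± 4.83, and 7 of the 9 neighbouring pairs in the order had overlapping libraries. In mdx the order opened with Nfkb1 at 144 ± 19.8 and Nfkbia at 121 ± 2.24, followed by Ikbkb at 85.5 ± 23.7 and Rela at 81.7 ± 0.52, the last pair overlapping. Nfkbiz was at 46.5 ± 3.95 and Tnfaip3 at 26.0 ± 2.56. In Sirt6mKO/mdx Nfkbia led again at 758 ± 203, Nfkbiz came next at 310 ± 40.7, and Tnfaip3 at 66.3 ± 3.20 lay ninth, overlapping Ikbkb at 76.0 ± 14.2.

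Counts of IkB family genes and of Tnfaip3 were also set against those of the subunits within each library. Counts of Nfkbia per count of Rela were 3.09 and 2.61 (control), 0.873 and 0.843 (mdx) and 2.04 and 3.31 (Sirt6mKO/mdx). The mdx ratios were below all others, and the other groups overlapped. For Nfkbiz the ratio to Rela was 1.96 and 1.73, then 0.814 and 0.910, then 2.93 and 2.69, so that it was higher in both Sirt6mKO/mdx libraries than in either control library. The ratio of Tnfaip3 to Rela was 1.47 and 1.01 (control), 0.484 and 0.552 (mdx) and 0.596 and 0.705 (Sirt6mKO/mdx), the last lying between the other groups and near mdx. Nfkb2 per count of Nfkb1, the precursors of the non-canonical and the canonical branch, was 0.521 and 0.627, then 0.278 and 0.329, then 0.637 and 0.642. These ratios come from the same counts within each library, do not depend on the size factor, and were not tested.

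Control replicate 1 exceeded control replicate 2 for 9 of the 10 genes, by up to 2.43-fold, and was lower only for Ikbkb. Left out, the calls in mdx against control numbered 6 of 10 (Nfkb2, Rela, Relb, Nfkbia, Nfkbiz and Tnfaip3), while those over all genes went from 2265 to 1391. In Sirt6mKO/mdx against mdx, leaving out either mdx replicate or either Sirt6mKO/mdx replicate gave 2 or 3 calls in place of 6, with Nfkbia and Nfkbiz among them each time. Over all genes the 1300 calls of this comparison became 481 and 386 without mdx replicate 1 and 2, and 203 and 254 without Sirt6mKO/mdx replicate 1 and 2. Profiles over the 6 libraries, each centred on its mean of log2(value + 1), were closest between Nfkb2 and Relb (root mean square difference 0.20) and between Rela and Rel (0.21).

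Among 9665 genes with a mean of at least 50, the one nearest to Nfkbiz was Gadd45b at 0.11, a stress-inducible gene that was also on the list of NF-kB targets, followed by Pim3 and Abtb2. Nearest to Nfkbia were the gene Gm17083 (0.21), the small GTPase gene Gem (0.26) and the transcription factor gene Klf4 (0.27). Klf4 was also on the list of immediate early and dissociation response genes. Nearest to Tnfaip3 were Mn1 (0.26), Ttyh1 (0.27) and Tnxb (0.28), and to Nfkb2 Plin4 (0.07), Pqlc1 and Mpp2. For the other subunits they were Rnf19b (0.08), Unc45a and Ulk1 for Relb, Cnnm4 (0.10), Azin1 and Rdh5 for Rel, Tmbim1 (0.11), Cdkn1a and Mid1 for Rela, and Stx11 (0.14), Mfsd7b and Gm26802 for Nfkb1. Nearest to Nfkbie were Slc16a3 (0.13), N28178 and Mroh1.

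The rest of the pathway was read from lists. Of 19 receptors and adaptors tested, 4 were called lower and 1, Traf1, higher in mdx (median -0.43), 3 were called higher in Sirt6mKO/mdx against mdx (median 0.06), and 1, Il1r1, was called lower in Sirt6mKO/mdx against control. Tnfrsf12a, the receptor of the cytokine TWEAK, was at 1023 and 778 (control), 108 and 124 (mdx) and 599 and 728 (Sirt6mKO/mdx). It fell by 2.94 (SE 0.26) and rose by 2.50 (SE 0.26) in the first 2 comparisons. Myd88, the adaptor of Toll-like and interleukin-1 receptors, fell by 2.17 and rose by 1.88. Ripk1, the adaptor kinase that A20 acts on, fell by 2.16 and rose by 1.62, and the receptor gene Tnfrsf1a fell by 1.24 and gave 0.76, not called, in Sirt6mKO/mdx against mdx.

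Of 10 other kinases tested by limma, 1 was called lower in mdx, where 7.34% of all genes were called lower. In Sirt6mKO/mdx against mdx 2 were called higher, where 5.62% of all genes were. In Sirt6mKO/mdx against control 0 were called, where 1253 of 15915 genes were, and 1 of the 10 had an unadjusted p under 0.05. Map3k8, a kinase of the inflammatory response, was at 267 and 113 for control mice, against 20 and 30 for mdx and 155 and 164 for Sirt6mKO/mdx. It fell by 2.78 (SE 0.42) and rose by 2.65 (SE 0.42). Map3k14, the kinase NIK of the non-canonical branch, rose by 1.03 in Sirt6mKO/mdx against mdx (limma adjusted p = 0.048), at the edge of both limits of a call. That call was lost when either mdx or either Sirt6mKO/mdx library was left out, and the call of the rise of Map3k8 without either Sirt6mKO/mdx library. Chuk, the other catalytic IkB kinase, gave 0.12 in mdx against control and 0.43 in Sirt6mKO/mdx against control, and Map3k7, a kinase that activates the IkB kinases, gave 0.34 and -0.54, none of them called. In Sirt6mKO/mdx against mdx Map3k7 had a log2 fold change of -0.88 (SE 0.26, limma adjusted p = 0.048), under the minimum size for a call.

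Of the 4 other IkB proteins, 2 were called lower in mdx and higher in Sirt6mKO/mdx. Bcl3, a nuclear IkB protein that works with p50 and p52, was at 325 and 167 (control), 25 and 39 (mdx) and 340 and 303 (Sirt6mKO/mdx). It fell by 2.86 (SE 0.36) and rose by 3.32 (SE 0.36), more than any of the 10 genes in the second comparison. Nfkbib, which encodes IkB-beta, fell by 1.38 and rose by 1.45. Of 15 genes tested on the list of other deubiquitinases and brakes, 3 were called lower and 1 higher in mdx, with a median of -0.10. In Sirt6mKO/mdx against mdx 2 of them were called higher. The 3 called lower were Zc3h12a, an RNase that degrades inflammatory transcripts, Tnip1, a partner of A20 (-1.62), and Rnf31 (-1.60). Rnf31 is the catalytic part of the linear ubiquitin ligase, which is not a brake although its gene is on the list. The genes of its other parts, Sharpin and Rbck1, are on the list as well. Zc3h12a was at 208 and 92 (control), 38 and 30 (mdx) and 169 and 160 (Sirt6mKO/mdx), and it rose by 2.25 in Sirt6mKO/mdx against mdx. Rnf31 was at 559 and 339, then 142 and 143, then 605 and 544, and was called in the same directions. Commd1, which promotes the degradation of Rela, rose by 1.24 in mdx. Against control no gene of this list was called in Sirt6mKO/mdx, where 1 had an unadjusted limma p under 0.05, and the most abundant, Tax1bp1 and Itch, gave 0.16 and -0.13.

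Of 24 NF-kB target genes tested, 12 were called lower and 1 higher in mdx (median -1.62). In Sirt6mKO/mdx against mdx 11 were called higher and 1 lower (median 0.54), and in Sirt6mKO/mdx against control 1 was called higher (Tnfaip2) and 5 lower (Lif, Birc3, Pim1, Ccnd1 and Cflar; median -0.15). With 1 library left out these totals of 13, 12 and 6 called targets ranged from 11 to 14, from 6 to 12 and from 1 to 5, the last 2 being lowest without Sirt6mKO/mdx replicate 2. Icam1, an adhesion molecule, was at 134 and 59 in control, then 5 and 2 in mdx, then 87 and 34 in Sirt6mKO/mdx, with log2 fold changes of -4.41 (SE 0.66) in mdx and 3.71 (SE 0.66) in Sirt6mKO/mdx against mdx. Ier3, an early response gene, fell by 3.43 and rose by 3.79, and the chemokine gene Cxcl1 rose by 3.55 and Gadd45b by 2.72 in Sirt6mKO/mdx against mdx.

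Some targets were also called lower than control in Sirt6mKO/mdx, as Tnfaip3 was. Lif, a cytokine gene, was at 154 and 189 for control mice, against 12 and 10 for mdx and 14 and 17 for Sirt6mKO/mdx, with log2 fold changes of -3.84 in mdx and -3.38 in Sirt6mKO/mdx against control, both called. Birc3, a ubiquitin ligase gene of the tumour necrosis factor receptor complex, was at 903 and 504, then 102 and 122, then 217 and 138, and was lower than control by -1.96 in Sirt6mKO/mdx. The kinase gene Pim1 fell by 4.09 in mdx, rose by 2.67 in Sirt6mKO/mdx against mdx and was still -1.42 against control. Tnfaip2 was called higher than control in Sirt6mKO/mdx, by 1.75.

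**Figure D4:**
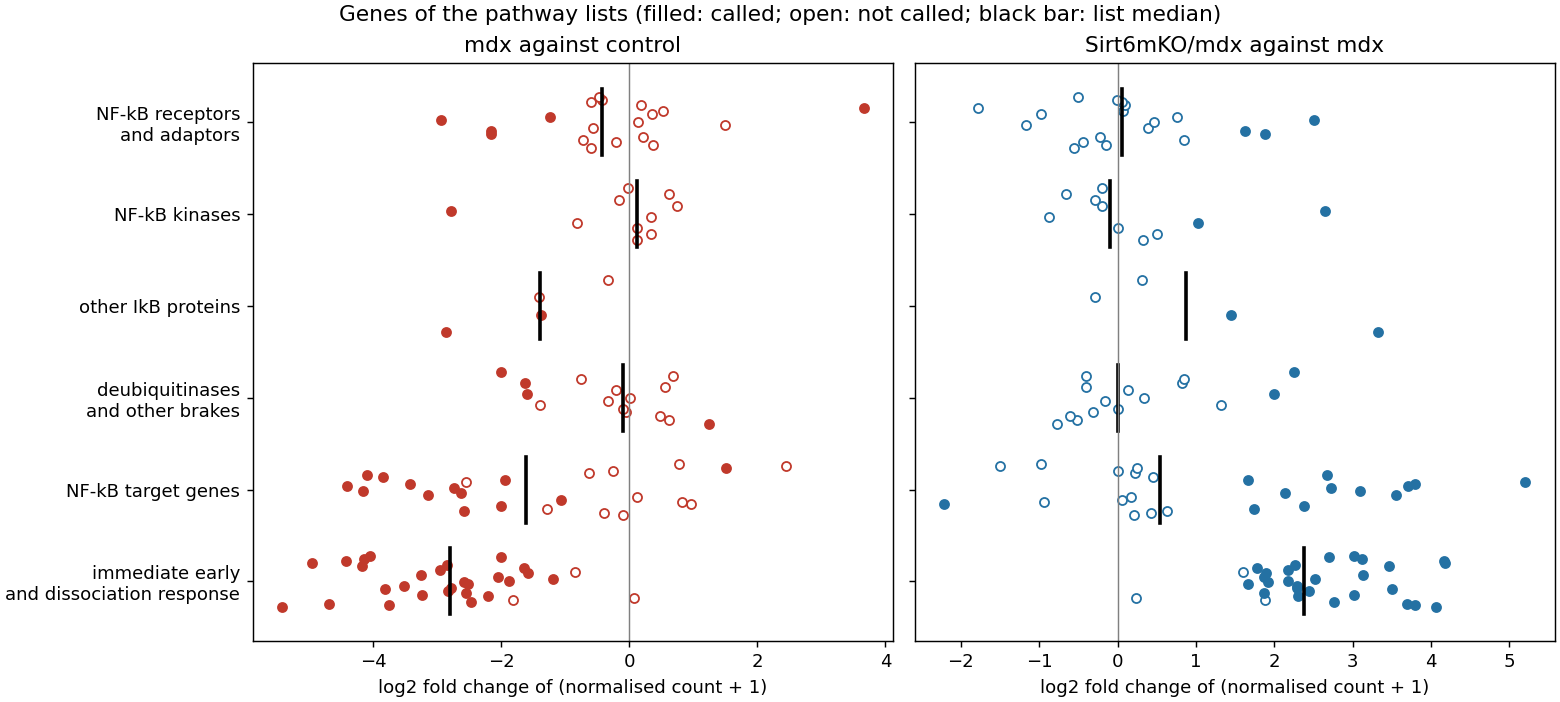
Log2 fold change of normalised count + 1 for each tested gene of 6 lists, in mdx against control (left) and in Sirt6mKO/mdx against mdx (right), with filled points for called genes and a bar for each list's median. Medians lie at -1.62 and 0.54 for NF-kB targets and at -2.80 and 2.37 for immediate early genes, and near 0 for kinases.

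Other marked RNA moved with the same libraries. Immediate early and dissociation response genes, which are known to rise when tissue is digested, summed to 189050 and 210674 (control), 25954 and 28820 (mdx) and 145773 and 139390 (Sirt6mKO/mdx). Of 30 such genes, 27 were called lower in mdx (median -2.80) and 27 higher in Sirt6mKO/mdx against mdx (median 2.37), while 1 was higher (Ier5) and 4 were lower (Atf3, Fosl2, Zfp36 and Nr4a3) in Sirt6mKO/mdx against control. With 1 library left out these 5 calls became 0 to 4, with 0 without either Sirt6mKO/mdx replicate and 1 without control replicate 2. Atf3, a stress transcription factor, had the largest fall of the list, with a log2 fold change of -5.42 in mdx, followed by the nuclear receptor gene Nr4a1 at -4.96, the chaperone gene Dnajb1 at -4.69 and Nr4a2 at -4.42, and in Sirt6mKO/mdx against mdx Nr4a1 rose by 4.17, Nr4a2 by 4.16, Atf3 by 4.07 and the antiproliferative gene Btg2 by 3.79. None of the 10 NF-kB genes is on this list. Its genes were chosen, so this absence does not set the 10 apart from such a response. The part of that response in their values was not tested.

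Markers of other cells ranged from low sums (leukocyte and macrophage) to sums about as high as those of the MuSC markers (fibro-adipogenic), and moved in part. Leukocyte and macrophage markers, in whose cells NF-kB genes are abundant, summed over 13 genes to 150 and 178 for control mice, against 157 and 133 for mdx and 290 and 241 for Sirt6mKO/mdx. Ptprc, which encodes CD45, was at 0 and 0, then 5 and 3, then 3 and 19. Cd68, a macrophage marker, was at 86 and 88, then 30 and 26, then 107 and 56, and the B cell gene Cd79a at 21 and 37, then 6 and 9, then 33 and 24, so that both were lowest in mdx, as 9 of the 10 NF-kB genes were. The list as a whole did not share this. In mdx against control 5 of its 9 tested genes had positive and 4 negative fold changes, with a median log2 fold change of 1.55. Lyz2, the most abundant marker of the list after Cd68, was at 0 and 14, then 47 and 26, then 39 and 67. Csf1r, the receptor of a macrophage growth factor, was at 18 and 27, then 9 and 21, then 28 and 15, with overlap. Of 9 leukocyte markers tested by limma, 2 were called higher (Ctss and Lyz2) and 1, Cd68, lower in mdx, and 0 were called in Sirt6mKO/mdx against mdx, where 2 had an unadjusted p under 0.05 and the fold changes of all 9 were positive. The 3 calls in mdx became 0 or 1 in each fit without 1 library, and the same Ctss and Lyz2 were called higher in Sirt6mKO/mdx against control, with 0 or 1 call in such fits. Endothelial markers summed over 10 genes to 966 and 864, then 469 and 490, then 681 and 685, and 2 of 8 tested, Kdr and Pecam1, were called lower in mdx, with 0 or 1 in each fit without 1 library, while Tek, an endothelial receptor, gave -0.84 (limma adjusted p = 0.025), under the minimum size for a call. In Sirt6mKO/mdx against mdx 6 of the 8 were positive and 0 were called by limma, while 3 had an unadjusted p under 0.05, namely Kdr at 3.03, Cdh5 at 2.55 and Pecam1 at 1.48, and Tek gave 0.42. Myofibre markers summed to 7242 and 9871, then 4421 and 1375, then 10379 and 5133, with 5 of 10 called lower in mdx (Myh2, Myh1, Mb, Acta1 and Ckm) and 5 called higher in Sirt6mKO/mdx against mdx (Myh2, Mb, Tnnc2, Myh1 and Acta1). With 1 library left out the first count was between 2 (without mdx replicate 2) and 7 (without mdx replicate 1), and the second between 0 (without mdx replicate 2 or either Sirt6mKO/mdx replicate) and 7. Fibro-adipogenic markers, of which 2 were called higher in mdx (Col1a1 and Ly6a) and 2 lower in Sirt6mKO/mdx against mdx (Col15a1 and Col1a1), summed to 31893 and 40032, then 49409 and 38869, then 28075 and 34949, and were not lowest in mdx. Against control, 1 of them, Col15a1, was called lower in Sirt6mKO/mdx, by -1.71 (limma adjusted p = 0.0025). Col3a1 and Gsn, the most abundant of them, gave 0.01 and -0.62 in that comparison, neither called. Among the MuSC markers Sdc4 was called lower in mdx and higher in Sirt6mKO/mdx against mdx, and Sdc4 and Heyl were called lower in Sirt6mKO/mdx against control. The latter 2 comparisons had 0 calls of MuSC markers without either Sirt6mKO/mdx replicate, and the former of them also without mdx replicate 2. Chodl and Vcam1, the most abundant MuSC markers by count, gave 0.04 and -0.98 in Sirt6mKO/mdx against mdx, neither called. Endothelial and myofibre sums were lowest in mdx, as all of the 10 NF-kB genes but Ikbkb were, and the part of these and of the leukocyte markers in the result was not tested.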

How the data were processed

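RNA-seq values of 6 MuSC libraries were used, in 3 groups of 2 as labelled. The authors trimmed the reads, aligned them with STAR to GRCm38 (mm10), counted them per Ensembl gene with featureCounts 1.4.5-p1 and divided them by DESeq2 size factors. The deposited values are these normalised counts rounded to whole numbers and were treated as a score, not as raw counts, so the count test of the methods was replaced by limma 3.58.1 (R 4.3.3) on log2(value + 1). This scale understates changes of low genes. The prior variance followed the mean, all 6 libraries entered 1 fit, and genes with a mean of at least 5 were tested. A call needed a Benjamini-Hochberg adjusted p (two-sided, over 15915 genes) of at most 0.05 and an absolute log2 fold change of at least 1. Size factors were recovered from skipped whole numbers, so depths are approximate. The use of strand was not stated. Transcript lengths came from GENCODE M21. All 10 genes were named, and from each list up to 4 called genes with the largest change and a mean of at least 50, or the 2 most abundant where fewer than 2 were called, with the 3 nearest profiles for each of the 10 genes called in a comparison. Other genes named in the text, Ptprc, Cd79a and Csf1r among them, were chosen after their values were seen. Members and lists were chosen with earlier results of these data known. The labels give replicate numbers and state no pairing, and the main fit treated libraries as unpaired. The deviations of same-numbered libraries correlated at -0.13, 0.12 and 0.01, which cannot show whether they shared a preparation. The tests were tested on simulated data. Alternatives changed the pseudocount, the minimum mean, the prior, the scaling, the groups fitted, the replicate block and the libraries.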

Additional observations from a re-analysis of the deposited data

How the results depend on the processing

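Of 480 values of the 10 genes under the alternatives, 406 kept direction and call, 56 lost the call, 11 gained one and 7 changed sign, none of the 7 being called. In the order mdx against control, Sirt6mKO/mdx against mdx and Sirt6mKO/mdx against control, the 10 genes gave 9, 6 and 1 calls and all genes 2265, 1300 and 1253. With no minimum mean there were 7, 2 and 0 calls (all genes 989, 168 and 221). With 1 prior variance for all genes there were 3, 0 and 0 (all genes 541, 0 and 87), while 8, 7 and 1 of the 10 and 4204, 3156 and 3157 genes had an unadjusted limma p under 0.05. With the totals of the libraries made equal there were 9, 4 and 7 (all genes 2235, 3411 and 3147), as the median of all genes moved to -0.58 in both comparisons with Sirt6mKO/mdx, where 479 were then higher and 2932 lower against mdx and 455 and 2692 against control. The main split was 895 and 405, and 826 and 427. With the upper quartile made equal the split was 718 and 623 in Sirt6mKO/mdx against mdx. Fits of only the 2 groups compared gave 7, 7 and 1 calls (all genes 1772, 1524 and 870). The fit with a replicate block gave 9, 7 and 1 calls (all genes 2415, 1510 and 1404), Nfkbie being the added call, and changed no other call. Leaving out each library in turn gave 6 to 9, 2 to 7 and 0 to 3 calls (all genes 939 to 2407, 203 to 1484 and 213 to 1314). Signs changed in Sirt6mKO/mdx against mdx for Ikbkb (-0.44 to 0.13 with a library left out, positive without mdx or Sirt6mKO/mdx replicate 2) and, with equal totals, for Nfkb1 (-0.0476), and against control for Nfkbie (-0.87 to 0.40), Nfkbiz (-0.50 to 0.29) and Relb (-0.66 to 0.22), each positive without control replicate 1 and Nfkbiz also without Sirt6mKO/mdx replicate 2. Of the counts of called genes per list, 378 stayed within 1.5 times of the main count over all alternatives and 150 did not. With 1 library left out, in the same order of comparisons, they ranged from 3 to 6, 3 to 3 and 0 to 1 for receptors and adaptors, 1 to 1, 0 to 2 and 0 to 0 for kinases, 1 to 2, 1 to 2 and 0 to 0 for other IkB proteins, 1 to 4, 1 to 2 and 0 to 1 for other brakes, 24 to 26, 19 to 27 and 0 to 4 for immediate early genes, 1 to 2, 0 to 1 and 0 to 2 for MuSC markers, 0 to 1, 0 to 0 and 0 to 1 for leukocyte markers, 0 to 1, 0 to 1 and 0 to 0 for endothelial markers and 1 to 2, 0 to 2 and 0 to 1 for fibro-adipogenic markers. The causes were not tested. Of the 10 genes, Nfkbia, Nfkbiz and Tnfaip3 were called in mdx against control under every alternative run. With 2 libraries per group the calls rest on the variance shared across genes.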

Other observations

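Secreted inflammatory signals among the NF-kB targets, described next, were chosen after their values were seen. Cxcl10, a chemokine gene, was at 137 and 113 (control), 17 and 22 (mdx) and 79 and 99 (Sirt6mKO/mdx) normalised counts. It fell by 2.62 on the log2 scale in mdx and rose by 2.14 in Sirt6mKO/mdx against mdx (limma, Benjamini-Hochberg adjusted p = 0.00053 and 0.0049). Il6, a cytokine gene, was at 18 and 8, then 4 and 0, then 51 and 130, and both Sirt6mKO/mdx libraries were above all others. Its rise of 5.21 against mdx was called (SE 0.90, adjusted p = 0.0025), its size resting on mdx values near 0, while the difference of 2.66 from control was not (adjusted p = 0.081). Tnf, which encodes tumour necrosis factor, was between 0 and 13 in the 6 libraries and Il1b between 0 and 12, so that both ligands of the pathway were low in every library. Ccnd1, which encodes cyclin D1, was the 1 target called lower in Sirt6mKO/mdx against mdx, with 352 and 851 for control mice, against 930 and 1217 for mdx and 207 and 251 for Sirt6mKO/mdx and a log2 fold change of -2.22 (limma, adjusted p = 0.00094).

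Among the lists with promoter windows, a kappa B match was found before 9 of 21 NF-kB target genes, 4 of 18 receptors and adaptors, 4 of 25 immediate early genes, 1 of 8 kinases, 1 of 4 other IkB proteins, 2 of 11 other brakes, 1 of 9 MuSC, 2 of 6 endothelial, 0 of 10 leukocyte, 0 of 6 fibro-adipogenic and 0 of 8 myofibre genes, against 5.56% of the 13140 genes of the deposited table with a window. These shares were not tested.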
